A study of Homo sapiens with 18 samples.

Results

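The 5 chemokine genes CXCL8, CXCL1, CXCL2, CXCL3 and CXCL16 were followed across all 18 libraries of a TRAFD1 knockdown experiment in THP-1 cells. They were chosen as the rows of the count table whose Ensembl identifier maps to those 5 symbols, and the rule uses no measured value. All 5 were among the 63677 genes of the table, and all 5 were among the 16678 genes that passed the filter on low counts and were tested.

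THP-1 is an established human line of acute monocytic leukaemia cells that grows in suspension. The cells were given an siRNA against TRAFD1 at 25 nM (KD), a non-targeting scrambled siRNA at the same concentration (SCR), or no siRNA (WT), and 72 h after transfection they received lipopolysaccharide (LPS) from E. coli at 10 ng/ml or medium alone for 4 h. This gave 6 groups of 3 libraries, with replicates 1 to 3 unstimulated and replicates 4 to 6 with LPS. The series description presents WT as untreated, while the protocol describes WT cells as given the transfection mix lacking siRNA, so a difference between SCR and WT cannot be ascribed to the siRNA or to the reagent. A single cell line and a single TRAFD1 siRNA were used. The cultures are described as triplicates, without saying whether they were independent, so that the p-values measure the spread between these libraries, which may be technical.

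Chemokines are small secreted proteins that direct the migration of leukocytes through G protein-coupled receptors. CXCL8 (interleukin 8), CXCL1, CXCL2 and CXCL3 carry the sequence Glu-Leu-Arg (ELR) before their first cysteines, bind CXCR2 (CXCL8 also binds CXCR1) and recruit neutrophils. Monocytes exposed to LPS are a known source of them: Toll-like receptor 4 activates NF-kB and AP-1, which drive transcription, and AU-rich elements near the end of the mRNA govern its decay. CXCL16 is of another kind. It lacks the ELR sequence, is made as a transmembrane protein that ADAM10 and ADAM17 can shed, binds CXCR6, and attracts activated T cells and natural killer T cells. The description of the set as neutrophil-attracting therefore fits CXCL8, CXCL1, CXCL2 and CXCL3, called the 4 ELR genes here, and not CXCL16.

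The 4 ELR genes lie together on chromosome 4. On GRCh37, CXCL8 (ENSG00000169429) spans chr4:74606236-74609433 on the plus strand and CXCL1 (ENSG00000163739) spans chr4:74735110-74737025 on the plus strand. CXCL3 (ENSG00000163734) spans chr4:74902306-74904524 on the minus strand, and CXCL2 (ENSG00000081041) spans chr4:74962757-74964913 on the minus strand. CXCL16 (ENSG00000161921) is on another chromosome, at chr17:4636828-4643223 on the minus strand.

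Promoters were taken from a RefSeq table on GRCh38.p14 that holds 300 bases per gene, 250 before the start and 50 after it; 4 of the 5 genes had an entry. The stretch from base -140 to base -51 of each is shown because it carries the word GGAATTTCC, one spelling of the NF-kB binding site, in all 4 ELR genes. Capitals mark this word and, in CXCL8, TGACTCA, the AP-1 site. Each sequence runs 5′ to 3′ in the direction of its gene, from chr4:73740429-73740518 (plus strand, CXCL8), chr4:73869253-73869342 (plus, CXCL1), chr4:74099246-74099335 (minus, CXCL2) and chr4:74038740-74038829 (minus, CXCL3).
CXCL8: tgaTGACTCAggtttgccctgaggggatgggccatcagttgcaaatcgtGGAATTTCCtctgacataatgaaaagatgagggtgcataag
CXCL1: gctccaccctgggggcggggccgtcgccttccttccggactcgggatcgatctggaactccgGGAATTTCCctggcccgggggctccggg
CXCL2: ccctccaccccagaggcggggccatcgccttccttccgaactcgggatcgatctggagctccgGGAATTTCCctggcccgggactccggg
CXCL3: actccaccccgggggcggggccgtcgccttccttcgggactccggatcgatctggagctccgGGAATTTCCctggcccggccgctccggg

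On both strands of all 35116 promoters in the table, GGAATTTCC was found in 0.461%. In the ELR genes it stood at bases -91 to -83 of CXCL8, -78 to -70 of CXCL1 and CXCL3, and -77 to -69 of CXCL2. In CXCL1, CXCL2 and CXCL3 a further G preceded it, and the word GGAATTTCC with this G before it was found in 0.145% of promoters. TGACTCA, at bases -137 to -131, was found in CXCL8 alone among the 4 and in 4.95% of all promoters. The whole 300 bases were aligned pair by pair with gaps allowed, and gaps count as positions here. CXCL1 and CXCL3 were identical at 82.5% of positions, CXCL1 and CXCL2 at 73.3%, and CXCL2 and CXCL3 at 72.2%. CXCL8 matched the other 3 at 44.3% to 46.6% of positions. The identity of unrelated promoters aligned in this way was not measured, so the CXCL8 values cannot be read as likeness. These matches describe the letters in this window and are not evidence of binding. The shares of all promoters are no test of enrichment. The further G was read from these same promoters, and those of CXCL1, CXCL2 and CXCL3 resemble each other.

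Reads were counted in the last 500 bases of each gene, and there the genes also differ. ATTTA, the core of AU-rich elements, occurred 3 times each in the last 500 bases of the canonical transcripts of CXCL8 and CXCL1, 5 times each in those of CXCL2 and CXCL3, and 0 times in that of CXCL16. Among 19215 transcripts the median was 1 copy, 13.2% had at least 3 and 2.19% had at least 5. The longer word TTATTTATT occurred 1 time each in CXCL1, CXCL2 and CXCL3 and 0 times in CXCL8 and CXCL16, and 2.77% of transcripts had it. Copies before the last 500 bases were not counted, so these numbers do not describe the whole end of each mRNA. CXCL1 and CXCL2 share 46 of their 451 words of 50 bases in this stretch (10.2%), so reads from there could be credited to either gene or dropped, whereas CXCL8, CXCL3 and CXCL16 shared 0 such words with other genes.

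Total counts ran from 8206023 to 22344279 per library (median 12595700.5). A count of 0 allows up to 3 counts, which is between 0.133 and 0.378 CPM (counts per 1000000 counts of a library, after scaling of its total by the TMM factor). This floor, like the intervals on ratios of counts below, covers counting error only, since the reads carry no molecular identifiers. TRAFD1 itself was lower in KD than in SCR without LPS (log2 fold change -1.45, SE 0.23, edgeR adjusted p = 0.0277), and the difference with LPS did not pass the threshold (-0.65, SE 0.22, adjusted p = 0.262). The call in medium was lost without SCR replicate 1 (adjusted p = 0.123), SCR replicate 3 (0.116) or KD replicate 2 (0.0663) and with the compared libraries alone (0.0796), with estimates of -1.43 to -1.20, and the difference with LPS passed with no filter on low counts (-0.66, adjusted p = 0.0275). All 12 monocytic markers examined were found, 11 of them above the floor in every library, summing to between 2100 and 2530 CPM. Most of this sum came from CTSG, with group means of 1210 to 1410 CPM, and ELANE, at 201 to 319 CPM. Both were placed in the monocytic list, so the sums depend on that choice. Neutrophil markers, CXCR2 among them, summed to between 6.42 and 15.9 CPM, with 2 of 7 at 0 in every library, and T cell markers to at most 0.615 CPM. B cell markers summed to between 2.52 and 6.27 CPM, epithelial markers to between 0.252 and 3.15 CPM and fibroblast markers to between 0.603 and 2.93 CPM. In bulk RNA, fewer cells making a transcript and less of it per cell cannot be told apart.

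For the ELR genes, 2 libraries were set apart by the sum over the 4 genes. KD replicate 1 without LPS held 9.32 CPM, against 4.13 and 2.48 CPM in the other KD libraries without LPS. Most of the 9.32 CPM came from CXCL8 (5.7 CPM) and CXCL2 (2.68 CPM), while the CXCL3 count of that library was 0. SCR replicate 5 with LPS held 91.8 CPM, against 46.1 and 48.3 CPM in the other SCR libraries with LPS. For CXCL16, WT replicate 5 with LPS stood apart, at 2.17 CPM against 0.583 and 0.391 CPM. Where leaving one of them out moved a value by much, both values are given. These libraries were picked by the levels of these genes, so p-values from fits without them are descriptions and not tests.

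The first question was how each gene responded to LPS. CXCL8, CXCL1, CXCL2 and CXCL3 rose in WT, SCR and KD alike, and for these 4 genes no library with LPS overlapped one in medium in any condition. CXCL8 and CXCL1 reached at least 10.1 CPM in every library with LPS. CXCL16 did not pass the test in any condition. Calls were made with edgeR's quasi-likelihood test at an adjusted p under 0.05. Of the 5 genes, 4 rose with LPS in each condition. Over all genes, 7.01% were called higher with LPS in WT, 8.64% in SCR and 6.41% in KD. The groups did not overlap, with LPS above medium, in 15% of all genes in WT, 17.5% in SCR and 12.8% in KD. The median log2 fold change of the 4 ELR genes was 4.40 in WT, 4.14 in SCR and 3.15 in KD, against -0.03, -0.03 and 0 over all genes tested. Without KD replicate 1 the KD values were 4.20 for CXCL8, 4.92 for CXCL1, 4.17 for CXCL2 and 2.13 for CXCL3.

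**Figure D1:**
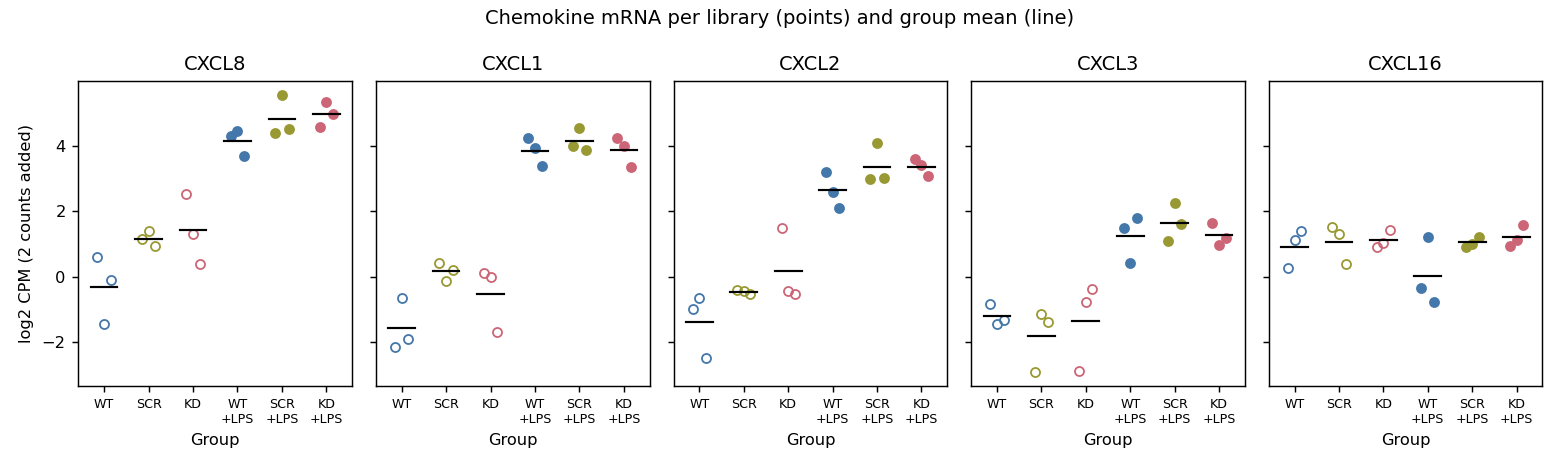
Level of each chemokine (log2 CPM after adding 2 counts, y axis) in every library of the 6 groups (x axis), with open circles for medium, filled circles for LPS and a line at the group mean. CXCL8, CXCL1, CXCL2 and CXCL3 separate by LPS in every condition, whereas the CXCL16 libraries intermingle.

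CXCL8, the most abundant of the set with LPS, was low in medium. WT replicates 1, 2 and 3 held 25, 2 and 19 counts, or 1.41, 0.181 and 0.844 CPM. SCR libraries held 2.13, 2.46 and 1.77 CPM, and KD libraries 5.7, 2.31 and 1.16 CPM. The KD values were the most scattered, and the lowest WT value was under the floor of 3 counts. With LPS, CXCL8 was at 19.6, 21.7 and 12.7 CPM in WT, 20.7, 46.9 and 23 CPM in SCR, and 23.6, 40.6 and 30.9 CPM in KD. Every LPS library was above every library in medium. The mean order was WT (0.812 ± 0.615 CPM, SD, n = 3 here and below), SCR (2.12 ± 0.347), KD (3.06 ± 2.36), then with LPS WT (18 ± 4.7), SCR (30.2 ± 14.5) and KD (31.7 ± 8.56). In this order the step from medium to LPS was the only one between neighbours whose libraries did not overlap, apart from that between WT and SCR in medium, which did not pass the test. The response was 4.34 (SE 0.49) in WT, 3.84 (SE 0.44) in SCR and 3.34 (SE 0.42) in KD on the log2 scale, with adjusted p of 1.3e-06, 2.52e-06 and 1.1e-05. Without KD replicate 1 the KD response was 4.20, and without SCR replicate 5 the SCR response was 3.37.

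CXCL1, which encodes GRO alpha, a ligand of CXCR2, had the largest log2 fold change of the set, in WT. Its WT libraries in medium held 2, 5 and 4 counts (0.113, 0.453 and 0.178 CPM), next to the floor. SCR held 28, 8 and 13 counts (1.24, 0.73 and 1 CPM), and KD held 14, 10 and 2 counts (0.939, 0.825 and 0.155 CPM). All SCR values lay above all WT values. With LPS the levels came close to each other: 18.8, 15.1 and 10.3 CPM in WT, 15.9, 23.5 and 14.4 CPM in SCR, and 18.6, 15.8 and 10.1 CPM in KD. The libraries of the 3 conditions overlapped with LPS. The log2 fold change was 6.02 (SE 0.46) in WT, 4.11 (SE 0.37) in SCR and 4.49 (SE 0.40) in KD, with adjusted p of 3.42e-09, 7.14e-08 and 7.64e-08. Because the WT base rests on 11 counts in all, the WT fold is imprecise. The ratio of the pooled, scaled counts was 68.8 in WT (95% counting interval 38.1 to 139), 17.3 in SCR (13 to 23.7) and 22.6 in KD (15.3 to 34.9). Group means ran from 0.248 ± 0.181 CPM in WT through 0.64 ± 0.423 in KD and 0.991 ± 0.257 in SCR to 14.7 ± 4.3 in WT, 14.8 ± 4.31 in KD and 17.9 ± 4.88 in SCR with LPS, and within each state neighbours in this order overlapped.

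CXCL2 (GRO beta), another CXCR2 ligand, reached lower levels than CXCL1 in every LPS group. WT libraries in medium held 7, 5 and 2 counts (0.395, 0.453 and 0.0888 CPM), and SCR libraries 15, 6 and 7 counts (0.666, 0.547 and 0.538 CPM). KD libraries held 40, 7 and 7 counts (2.68, 0.578 and 0.544 CPM). KD replicate 1 lay far above the other KD libraries, and every KD library was above every WT library. With LPS, CXCL2 was at 9.04, 5.84 and 4.11 CPM in WT, 7.68, 16.8 and 7.99 CPM in SCR, and 11.9, 10.7 and 8.22 CPM in KD. The log2 fold change was 4.45 (SE 0.58) in WT, 4.17 (SE 0.52) in SCR and 2.96 (SE 0.47) in KD, with adjusted p of 1.08e-05, 7.69e-06 and 0.000204. Without KD replicate 1 the KD response was 4.17, near that of the other conditions, and without SCR replicate 5 the SCR response was 3.70. Group means in order were 0.312 ± 0.196 (WT), 0.584 ± 0.0711 (SCR) and 1.27 ± 1.22 (KD) CPM in medium and 6.33 ± 2.5 (WT), 10.3 ± 1.86 (KD) and 10.8 ± 5.17 (SCR) CPM with LPS. Of the neighbours within a state, only WT and SCR in medium did not overlap, and their difference did not pass the test.

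CXCL3 (GRO gamma) was the lowest of the 4 ELR genes with LPS in every condition. In medium it was at or under the floor of 3 counts in 5 of the 9 libraries, and the precision of its folds is limited accordingly. WT held 8, 2 and 7 counts (0.452, 0.181 and 0.311 CPM), SCR held 1, 3 and 3 counts (0.0444, 0.274 and 0.231 CPM), and KD held 0, 5 and 8 counts (0, 0.413 and 0.621 CPM). With LPS it was at 2.62, 1.17 and 3.23 CPM in WT, 1.89, 4.58 and 2.9 CPM in SCR, and 2.97, 1.86 and 2.13 CPM in KD. The LPS libraries of the 3 conditions overlapped. The log2 fold change was 2.80 (SE 0.67) in WT, 4.23 (SE 0.75) in SCR and 2.76 (SE 0.68) in KD, with adjusted p of 0.00614, 0.000454 and 0.011. The SCR value rests on 7 counts in medium, and the ratio of pooled, scaled counts was 22.2 there (95% counting interval 10.5 to 56.4), against 6.87 in WT (4.01 to 12.4) and 6.92 in KD (3.85 to 13.5). Fitted to the KD libraries alone, the KD response was 2.75 with an adjusted p of 0.0731, and without KD replicate 1 it was 2.13 (adjusted p = 0.0193). In order, the means were 0.183 ± 0.122 (SCR), 0.315 ± 0.135 (WT) and 0.345 ± 0.316 (KD) CPM in medium and 2.32 ± 0.578 (KD), 2.34 ± 1.06 (WT) and 3.12 ± 1.36 (SCR) CPM with LPS, with overlap between neighbours within each state.

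CXCL16, the CXCR6 ligand, was the one gene of the set whose libraries with LPS overlapped those in medium in every condition. In medium it was at 1.07, 2 and 2.53 CPM in WT, 2.8, 2.28 and 1.15 CPM in SCR, and 1.74, 1.9 and 2.56 CPM in KD. With LPS it was at 0.583, 2.17 and 0.391 CPM in WT, 1.64, 1.87 and 2.19 CPM in SCR, and 1.75, 2.04 and 2.82 CPM in KD. In WT, replicates 4 and 6 were below all WT libraries in medium and replicate 5 was among them. The log2 fold change was -0.80 (SE 0.51, 95% interval -1.85 to 0.26) in WT, -0.13 (SE 0.48) in SCR and 0.09 (SE 0.47) in KD, with adjusted p of 0.344, 0.883 and 0.929. Without WT replicate 5, the library singled out by its high CXCL16 level, the WT value was -1.92 with an adjusted p of 0.0297. Because of that choice this p-value is no test of a decrease. The 2 low WT libraries held 6 and 4 counts. Group means were 1.05 ± 0.976 (WT with LPS), 1.87 ± 0.738 (WT), 1.9 ± 0.279 (SCR with LPS), 2.07 ± 0.435 (KD), 2.08 ± 0.84 (SCR) and 2.2 ± 0.553 (KD with LPS) CPM, and all neighbours in this order overlapped.

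**Figure D2:**
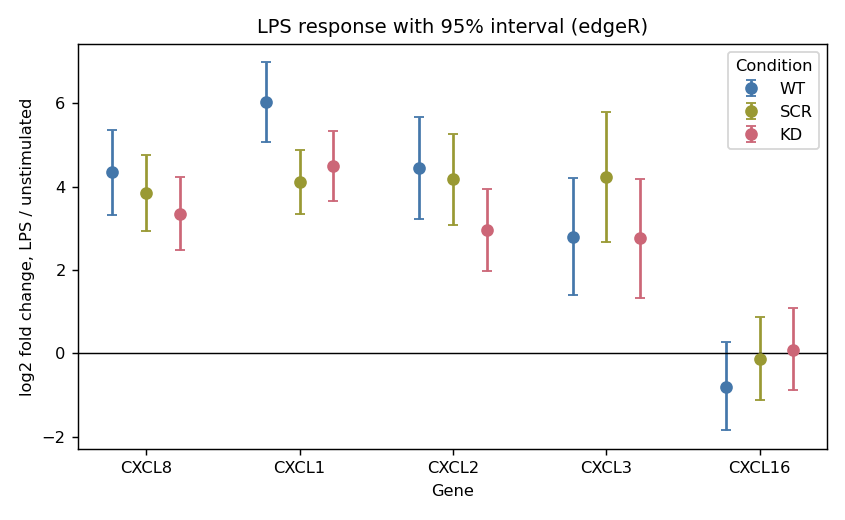
Log2 fold change of LPS against medium (y axis) for each gene (x axis) in WT, SCR and KD, as points with 95% intervals from edgeR. All 12 intervals of CXCL8, CXCL1, CXCL2 and CXCL3 lie above 0, from 2.76 for CXCL3 in KD to 6.02 for CXCL1 in WT, whereas the 3 intervals of CXCL16 include 0.

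The composition of the set changed with LPS. QuantSeq yields 1 fragment per transcript from its 3′ end, so that levels can be set side by side without a correction for length. CXCL16 made up 52.5% of the summed mean CPM of the 5 genes in WT in medium, 34.9% in SCR and 28% in KD, and with LPS 2.47%, 2.97% and 3.59%. CXCL8 rose from 22.9% to 42.4% of the sum in WT, from 35.6% to 47.2% in SCR and from 41.4% to 51.7% in KD. CXCL1 was the second of the set with LPS, at 34.7%, 28% and 24.2% in WT, SCR and KD. These shares are ratios of group means and have no test. They cover only reads in the last 500 bases of each gene, and those from the sequence that CXCL1 and CXCL2 share could be credited to either gene or dropped.

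**Figure D3:**
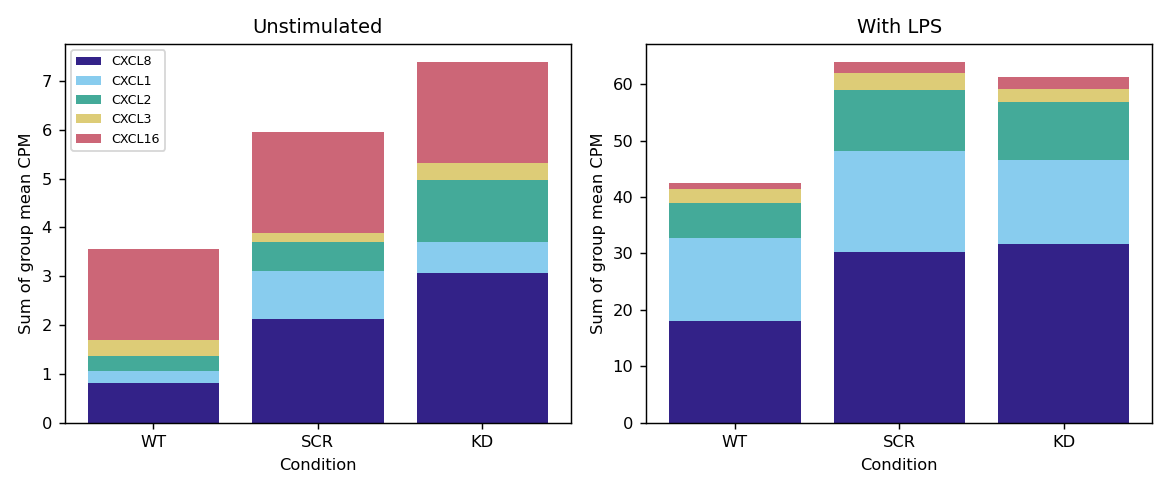
Sum of the group mean CPM of the 5 genes (y axis, different scales in the 2 panels) by condition (x axis) without and with LPS, stacked by gene. CXCL16 holds 28% to 52.5% of the bar in medium and 2.47% to 3.59% with LPS, where CXCL8 and CXCL1 together fill most of it.

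The next question was whether the conditions differed in medium. Among the 5 genes, CXCL1 was higher in SCR than in WT, and CXCL8 and CXCL2 were higher in KD than in WT, all at low levels, while no gene passed the test between KD and SCR. In SCR against WT, 1 of the 5 was called and was higher. Over all genes 3.23% were called, and 1.78% were higher. CXCL1 differed by 2.19 (log2, SE 0.58, adjusted p = 0.0412, 49 counts in SCR and 11 in WT). Its call was lost without WT replicate 1 or 3 or any 1 of the 3 SCR replicates, with values between 1.86 and 2.34 and adjusted p from 0.0522 to 0.196, and in the fit of the 2 groups alone (2.11, adjusted p = 0.133). CXCL8 (1.25, SE 0.56, adjusted p = 0.249) and CXCL2 (1.06, SE 0.73, adjusted p = 0.497) were also above WT in all 3 SCR libraries, and 11.1% of all genes showed such a separation upwards. For CXCL3 the estimate was -0.99 (SE 0.86) and for CXCL16 0.17 (SE 0.47).

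Between KD and WT in medium, 2 of the 5 genes were called, both higher in KD. Over all genes 11.7% were called, and 5.85% were higher. CXCL8 was higher by 1.82 (SE 0.54, adjusted p = 0.0327), although KD replicate 3 (1.16 CPM) was below WT replicate 1 (1.41 CPM). CXCL2 was higher by 2.19 (SE 0.66, adjusted p = 0.0348), with every KD library above every WT library, as in 10.8% of all genes. Both calls were lost without KD replicate 1, where CXCL8 differed by 0.96 (adjusted p = 0.299) and CXCL2 by 0.98 (adjusted p = 0.395). They were also lost without WT replicate 3 (adjusted p = 0.117 and 0.187), CXCL8 without WT replicate 2 (0.0824), CXCL2 without WT replicate 1 (0.056), and both with the compared libraries alone (0.167 and 0.218). For CXCL1 the difference was 1.53 (SE 0.65, adjusted p = 0.135), and it passed with no filter on low counts (1.52, adjusted p = 0.0474) and without KD replicate 3 (1.98, adjusted p = 0.0439). CXCL3 (0.03) and CXCL16 (0.14) had estimates near 0, with 95% intervals of -1.64 to 1.71 and -0.84 to 1.13, and CXCL3 was at 0.65 without KD replicate 1.

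For KD and SCR in medium, the comparison that sets the TRAFD1 siRNA against a control siRNA, edgeR called 0 of the 5 genes, 0 were at an unadjusted p under 0.05 and DESeq2 also called 0. Over all genes edgeR called 0.066%, with 2107 genes at an unadjusted p under 0.05 and 242 called by DESeq2. The estimates were 0.56 for CXCL8 (SE 0.48, 95% interval -0.45 to 1.57), -0.66 for CXCL1 (SE 0.50, -1.69 to 0.37), 1.13 for CXCL2 (SE 0.59, -0.1 to 2.35), 1.02 for CXCL3 (SE 0.89, -0.83 to 2.86) and -0.03 for CXCL16 (SE 0.47, -1.01 to 0.95). The intervals reach from a fold of 0.309 for CXCL1 to 7.28 for CXCL3. Without KD replicate 1, CXCL8 and CXCL2 took the other sign (-0.29 and -0.09), and CXCL3 was at 1.65 and CXCL1 at -1.09. KD against WT and KD against SCR share the KD libraries, and both comparisons with WT share the WT libraries.

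Of the 12 monocytic markers, 1 was called in SCR against WT in medium (median log2 fold change of the 12, 0.01). In KD against WT 2 were called (median 0.13), and all of these calls were higher. The shares over all genes were 3.23% called (1.78% higher) in SCR against WT and 11.7% (5.85% higher) in KD against WT. CD14, the LPS co-receptor, was called in both, by 1.14 in SCR (SE 0.20, adjusted p = 0.00311) and by 0.72 in KD (SE 0.20, adjusted p = 0.0232), and ELANE, neutrophil elastase, in KD (0.67, adjusted p = 0.00095). Their part in the chemokine differences was not tested.

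With LPS, none of the 5 genes passed the test between any pair of conditions. In SCR against WT, edgeR called 0 of the 5 genes, with 0 at an unadjusted p under 0.05 and 0 called by DESeq2. Over all genes edgeR called 0.114%, with 2285 genes at an unadjusted p under 0.05 and 196 called by DESeq2. CXCL8 differed by 0.75 (SE 0.37, adjusted p = 0.369), CXCL2 by 0.79 (SE 0.41, adjusted p = 0.408) and CXCL16 by 0.83 (SE 0.52, adjusted p = 0.486), or by 1.96 without WT replicate 5 (adjusted p = 0.209). Without SCR replicate 5, CXCL8 was at 0.28 and CXCL2 at 0.31. CXCL1 (0.28) and CXCL3 (0.44) had smaller estimates.

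In KD against SCR with LPS, edgeR again called 0 of the 5 genes, 0 had an unadjusted p under 0.05, and DESeq2 called 0. Over all genes edgeR called 0%, with 1963 genes at an unadjusted p under 0.05 and 142 called by DESeq2. The intervals bound the difference. The fold of KD over SCR was between 0.626 and 1.75 for CXCL8, 0.541 and 1.26 for CXCL1, 0.527 and 1.67 for CXCL2, and 0.324 and 1.64 for CXCL3 (95% intervals). For CXCL16 it was between 0.575 and 2.29. The log2 estimates were 0.06 for CXCL8, -0.28 for CXCL1, -0.09 for CXCL2, -0.45 for CXCL3 and 0.20 for CXCL16, and without SCR replicate 5 CXCL8 was at 0.54 and CXCL2 at 0.39.

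Between KD and WT with LPS, edgeR called 10.8% of all genes, with 4413 genes at an unadjusted p under 0.05 and 2299 called by DESeq2. Of the 5 genes, edgeR called 0, DESeq2 called 0, and 1 had an unadjusted p under 0.05. That gene was CXCL8, at 0.82 (SE 0.37, unadjusted p = 0.0364, adjusted p = 0.155), whose KD libraries (23.6 to 40.6 CPM) all lay above the WT libraries (12.7 to 21.7 CPM), as did those of 18.6% of all genes. In edgeR, CXCL8 passed the threshold with a term for the replicate number (0.81, adjusted p = 0.0414) and with the compared libraries alone (0.81, adjusted p = 0.00447). It also passed there with no filter on low counts (0.81, adjusted p = 0.00086), but not with any library left out. CXCL2 differed by 0.70 (SE 0.41, adjusted p = 0.298). CXCL16 differed by 1.03 (SE 0.51, adjusted p = 0.202). It differed by 2.16 (adjusted p = 0.0243) without WT replicate 5, which was singled out by its CXCL16 level, so that value is no separate test. CXCL1 and CXCL3 had estimates of 0.01 and -0.01. TRAFD1 itself was not called in this comparison (-0.23, 95% interval -0.7 to 0.24). In medium it was called lower in KD than in WT (-1.23, -1.71 to -0.75), and within KD it was called higher with LPS (0.73, 0.25 to 1.22).

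**Figure D4:**
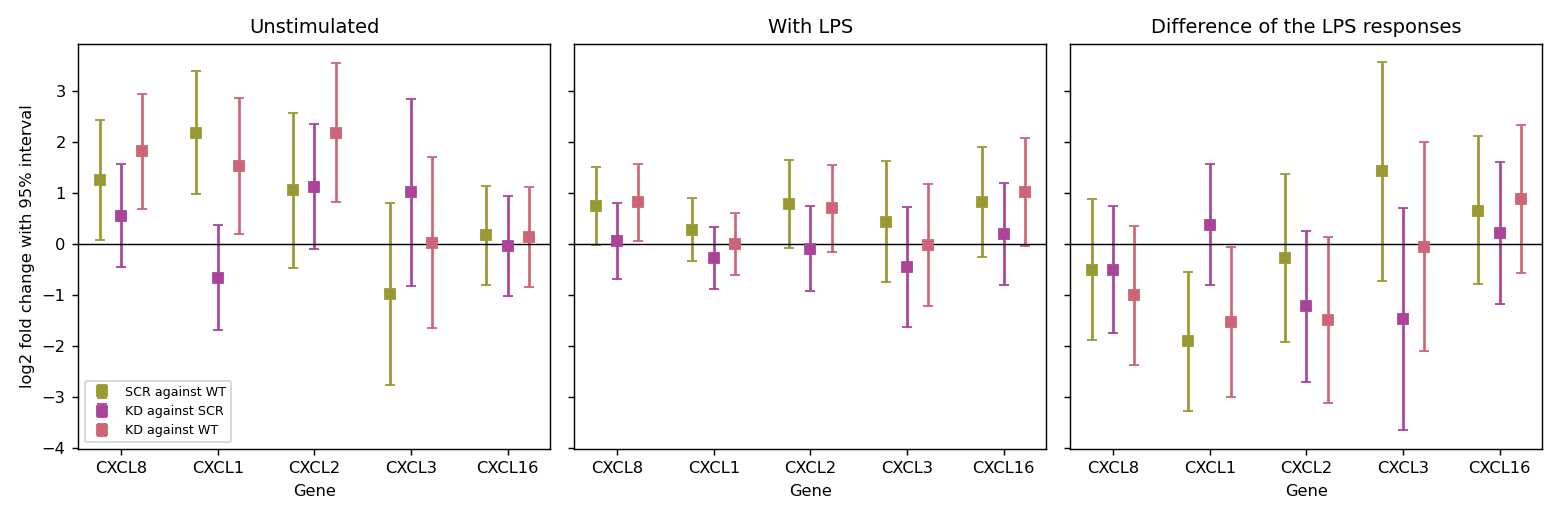
Log2 fold change with 95% interval from edgeR (y axis) for each gene (x axis) between the conditions in medium (left), with LPS (middle) and as the difference of their LPS responses (right). The intervals in medium reach up to 3.56 for CXCL2 in KD against WT, and the intervals of KD against SCR include 0 for all 5 genes in all 3 panels.

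Whether the size of the LPS response differed between the conditions was tested with interaction terms. The WT response of CXCL1 exceeded that of SCR by 1.91 on the log2 scale (log2 difference SCR minus WT -1.91, SE 0.66, edgeR unadjusted p = 0.00859), but the adjusted p was 0.385 over all genes. Of the 5 genes, 0 were called by edgeR or DESeq2. Over all genes edgeR called 0.234%, with 1661 at an unadjusted p under 0.05 and 85 called by DESeq2. For KD against WT, edgeR and DESeq2 each called 0 of the 5. Over all genes edgeR called 0.36%, with 2593 at an unadjusted p under 0.05 and 275 called by DESeq2. CXCL1 was again the gene with an unadjusted p under 0.05 (log2 difference -1.53, SE 0.71, edgeR adjusted p = 0.305). As the medium values above show, these CXCL1 differences go with 11 counts in WT medium against 49 in SCR and 26 in KD. For KD against SCR, 0 of the 5 were called by either tool and 0 had an unadjusted p under 0.05. Over all genes edgeR called 0%, with 1274 at an unadjusted p under 0.05 and 3 called by DESeq2. The estimates were -0.50 for CXCL8, 0.38 for CXCL1, -1.22 for CXCL2, -1.47 for CXCL3 and 0.22 for CXCL16. Without KD replicate 1, CXCL8 was at 0.35 and CXCL2 at -0.00396.

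Other ligands of the same receptors were hardly detected. CXCL5 did not exceed 4 counts and CXCL6 did not exceed 6 counts in any library, and PPBP, which encodes a platelet ligand of CXCR2, was at 0 in all, as were PF4 and PF4V1 of the same gene cluster. Genes interspersed with or next to the ELR genes on chromosome 4 were examined too. MTHFD2L, a mitochondrial folate enzyme, had group means from 7.32 to 9.11 CPM, and the growth factor gene BTC from 1.66 to 2.35 CPM. AREG reached at most 20 counts, EREG 15 and RASSF6 6, and EPGN was at 0. Of these 6 neighbours 3 were tested, and 0 passed the threshold for LPS in any condition. Over all genes 14.3% were called in WT, 17.2% in SCR and 11.5% in KD, so 3 genes are too few to differ from that share.

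Receptors were low, too. CXCR2 was the one receptor of the 4 examined that was tested. In WT it was at 8.92, 9.34 and 5.06 CPM in medium and at 2.72, 2.42 and 5.09 CPM with LPS, and the lowest library in medium lay just under the highest with LPS. The difference was -1.18 (SE 0.34, adjusted p = 0.0217), and it was lost without WT replicate 1, 2, 4 or 5 (adjusted p from 0.0805 to 0.112). In SCR (-0.52, adjusted p = 0.344) and KD (-0.41, adjusted p = 0.477) it did not pass. CXCR1 had at most 5 counts in a library, and CXCR6, the receptor of CXCL16, and ACKR1, a scavenger of several of these chemokines, had 0. For the proteases that release CXCL16, ADAM17 rose with LPS in WT (log2 fold change 0.41), SCR (0.37) and KD (0.41; adjusted p = 0.00523, 0.00938 and 0.00659). The WT call was lost without WT replicate 4 (0.28, adjusted p = 0.059) and the KD call in a fit of the KD libraries alone (adjusted p = 0.051). ADAM10 did not pass in any condition. Of 8 other CXC ligand and receptor genes 4 were tested. The only one called for LPS was CXCR4, the CXCL12 receptor, lower in WT (-0.88) and SCR (-0.63). The shares of all genes called were 14.3% in WT, 17.2% in SCR and 11.5% in KD.

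A list of 15 genes for the induction and decay of these transcripts was also tested for the LPS response. In WT 7 were higher and 1 lower, in SCR 5 and 1, and in KD 6 and 1, where 14.3%, 17.2% and 11.5% of all genes were called in either direction. NFKB1, NFKBIA and NFKBIZ, a precursor and 2 inhibitor-family proteins of the NF-kB system, rose in all 3 conditions. NFKBIA went from 252 ± 13.8 to 1380 ± 56.2 CPM in WT, from 389 ± 27.5 to 1380 ± 71.8 CPM in SCR and from 292 ± 40 to 1120 ± 18.3 CPM in KD. NFKB1 rose by 2.55, 1.79 and 1.83 and NFKBIZ by 3.24, 2.13 and 2.12 on the log2 scale in WT, SCR and KD. The AP-1 genes JUN (1.00, 0.72 and 0.92) and FOSL1 (1.42, 0.89 and 1.19) also rose in all 3, and CEBPB, a transcription factor that acts on the CXCL8 promoter, was lower in all 3 (-0.64, -0.63 and -0.70). The conditions were less alike in FOS, also of AP-1, and RELA, of the NF-kB system. Mean FOS went from 8.77 to 8.59 CPM in WT, 9.01 to 15.6 in SCR and 7.84 to 22.7 in KD. Mean RELA went from 113 to 146 CPM in WT, 120 to 117 in SCR and 90.7 to 96.4 in KD. The mRNA-binding proteins KHSRP, HNRNPD, ELAVL1, ZFP36L1 and ZFP36L2 were not called, and ZFP36 (tristetraprolin), which promotes the decay of AU-rich mRNAs, was called in WT (1.25) and not in SCR (0.42) or KD (0.80).

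**Figure D5:**
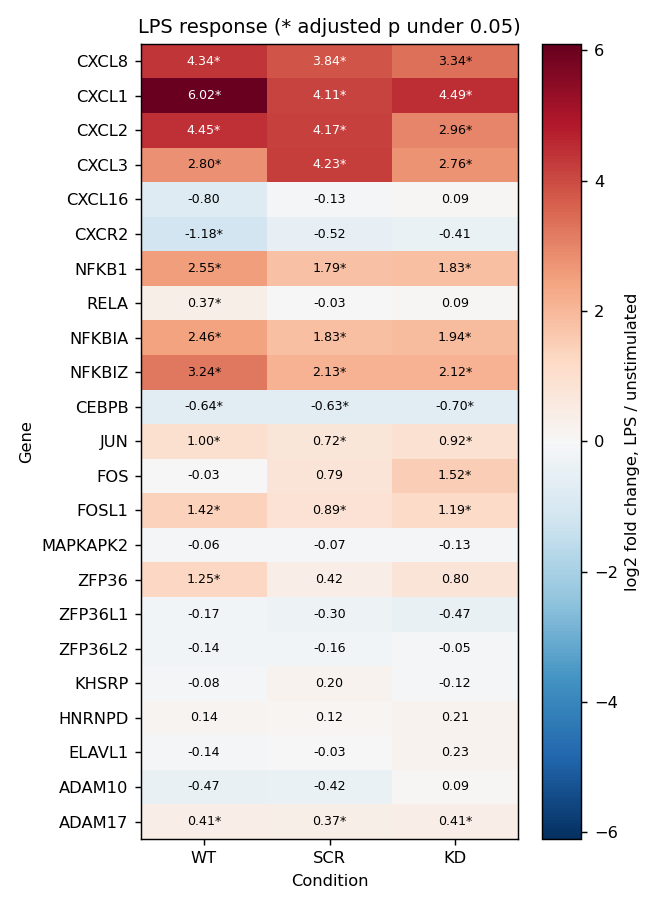
Log2 fold change of LPS against medium for the 5 chemokines, CXCR2, the CXCL16 proteases and the 15 induction and decay genes (y axis) in each condition (x axis), with the colour scale at the right in the same unit and an asterisk at an adjusted p under 0.05. In SCR and KD the 4 ELR genes exceed all other genes shown, while in WT NFKBIZ (3.24) exceeds CXCL3 (2.80), and CEBPB is negative in all 3 columns.

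In medium, 5 of the 15 were higher in SCR than in WT and 0 lower, namely NFKB1 (0.65), NFKBIA (0.63), NFKBIZ (1.29), JUN (0.72) and ZFP36L1 (0.90), in the same comparison in which CXCL1 was called, against 3.23% of all genes called. In KD against WT 5 were higher, among them ZFP36 (1.38) and NFKBIZ (0.94), and KHSRP was lower (-0.59), against 11.7% of all genes. Between KD and SCR edgeR called 0 of the 15 in either state, against 0.066% of all genes in medium and 0% with LPS. With LPS, 2 were higher and 4 lower in KD than in WT, against 10.8% of all genes, and 0 were called between SCR and WT, against 0.114%.

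Across the 18 libraries the ELR genes varied together. Pearson's r of log2 CPM was 0.93 between CXCL8 and CXCL1, 0.95 between CXCL8 and CXCL2, 0.95 between CXCL1 and CXCL2, and 0.78 to 0.80 for pairs with CXCL3, while CXCL16 had r of -0.29 to -0.13 with the others. After the group means were taken out, CXCL1 and CXCL2 still had r of 0.63 and CXCL8 and CXCL2 of 0.43, while CXCL8 and CXCL1 had 0.14, and pairs with CXCL3 ran from -0.42 to -0.31. These values describe 18 libraries that share the LPS contrast, and CXCL1 and CXCL2 also share part of their counted sequence. Among 14471 genes of at least 1 CPM, the pattern most like that of CXCL8 was found in PTX3 (r 0.975), DENND5A (0.97) and NABP1 (0.968), and that most like CXCL1 in TNFAIP3 (0.979), TNFAIP6 (0.976) and NFKBIA (0.976). For CXCL2 it was NAMPT (0.975), NOTCH2 (0.969) and CRIM1 (0.968). The nearest to CXCL3 were TRA2A (0.931), MGLL (0.927) and RC3H1 (0.925). For CXCL16 the highest values were lower, at 0.813 for TRMT10A, 0.813 for PLD6 and 0.752 for EMP1.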

How the data were processed

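The deposited table holds raw read counts per Ensembl gene, which the authors made from QuantSeq 3′ libraries (NextSeq 500) by aligning with HISAT at default settings to human_g1k_v37 (GRCh37, Ensembl release 75) and counting with featureCounts of RSubread v1.6.2, in an annotation limited to the last 500 bases of each gene. Libraries were not pooled, and the read length is not given in the sources used here.

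Genes were filtered with filterByExpr, which kept 16678 of 34092 genes with counts, and edgeR 4.0.16 (R 4.3.3) was used for a quasi-likelihood F test with TMM scaling, in 1 model of the 18 libraries that has a mean for each of the 6 groups. The 12 contrasts were the LPS response in 3 conditions, the condition pairs in both states and 3 interactions. P-values were adjusted by Benjamini-Hochberg over all genes tested, with a threshold of 0.05, and the SE is the log2 fold change over the square root of F. The common biological coefficient of variation was 0.17. With 3 libraries a group, an exact permutation test cannot go below 0.1. CPM are on the TMM scale, and log2 CPM used a prior count of 2. Symbols came from GENCODE v44lift37 (55665 of 63677 genes), and 0 columns of values were left out. No 2 replicates agreed within counting noise (lowest chi-square per degree of freedom 4.91). Same-numbered SCR and WT libraries with LPS deviated together (r of 0.16 to 0.23), and with the replicate number in the model the count of called chemokines there stayed at 0. The script was tested on simulated counts. The genes, lists and tests were chosen with earlier results of these data known. Named genes are the 5 chemokines, TRAFD1, the fixed lists, and the 3 genes most correlated with each member.

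Alternatives were DESeq2 1.42.0, other size factors, no filter, the replicate block, the compared groups alone, and each library left out.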

Additional observations from a re-analysis of the deposited data

Results flagged for a closer look

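By the interaction term of the edgeR model, the LPS response of 2 genes of the NF-kB system was called different between conditions. Over all genes, 0.234% were called in SCR against WT and 0.36% in KD against WT. None of the 5 chemokines was called, but their estimates were less precise. For CXCL1 they were -1.91 (95% interval -3.28 to -0.54) in SCR against WT and -1.53 (-3 to -0.05) in KD against WT. NFKB1 rose less in SCR than in WT (log2 difference -0.768, SE 0.156, adjusted p = 0.0368) and less in KD than in WT (-0.72, SE 0.157, adjusted p = 0.0466). NFKBIA rose less in SCR than in WT (-0.63, SE 0.125, adjusted p = 0.0329). In both genes the level in medium was higher in SCR than in WT. These comparisons share the WT libraries, and alternatives were not run for them.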

How the results depend on the processing

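The alternatives touched the LPS responses of the 4 ELR genes little: over all alternatives 1 call was lost (CXCL3 in KD, fitted to the KD libraries alone) and 0 called results of the 5 genes changed sign. The LPS response counted 4 called chemokines in WT, SCR and KD under nearly all settings, with 5 in WT without replicate 5 and 3 in KD for the fit of KD alone. The comparisons between conditions moved more. In SCR against WT in medium, 1 chemokine was called as reported, 2 with no filter on low counts (CXCL8 and CXCL1), 0 with the compared libraries alone and 0 to 1 with a library left out. Between KD and WT in medium, the count of 2 fell to 0 with the compared libraries alone and ran from 0 to 3 with a library left out. With LPS, 0 became 1 with no filter in SCR against WT (CXCL8). Between KD and WT with LPS, 0 became 1 (CXCL8) with no filter, with the replicate block and with the compared libraries alone, and ran from 0 to 1 with a library left out. For the LPS response in SCR against WT, 0 became 1 with no filter (CXCL1, -1.90, adjusted p = 0.0384). The causes were not tested.

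Estimates near 0 changed sign. For CXCL1 in KD against WT with LPS, the value was -0.0159 with DESeq2 size factors, -0.0111 with library totals, -0.00455 with no filter, -0.0153 with DESeq2 and -0.000458 with the compared libraries alone. For CXCL16 in KD against SCR in medium it was 0.00136 with the compared libraries alone. With the replicate block, CXCL3 was at -0.154 in KD against WT in medium, 0.0078 with LPS and 0.162 for the difference of the LPS responses. Only for SCR and WT with LPS did every library of one condition correlate best with the same-numbered library of the other. Elsewhere r ran from -0.08 to 0.3, the highest being replicate 1 of KD and WT in medium. Apart from CXCL8 in KD against WT with LPS, the block changed no call of the 5 genes.

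With a library left out, the ranges of the results that changed sign were as follows. For LPS in SCR, CXCL16 ran from -0.4 to 0.17. For LPS in KD, CXCL16 ran from -0.121 to 0.275 and CXCR2 from -0.631 to 0.0375. In SCR against WT in medium, CXCL16 ran from -0.137 to 0.483. In KD against SCR in medium, CXCL8 ran from -0.289 to 0.947, CXCL2 from -0.0886 to 1.48 and CXCL16 from -0.292 to 0.277. Between KD and WT in medium, CXCL3 ran from -0.748 to 0.653 and CXCL16 from -0.136 to 0.458. In KD against SCR with LPS, CXCL8 ran from -0.164 to 0.539, CXCL2 from -0.275 to 0.385 and CXCL16 from -0.0138 to 0.333. Between KD and WT with LPS, CXCL1 ran from -0.195 to 0.22 and CXCL3 from -0.341 to 0.292. For the difference of the LPS responses, CXCL2 ran from -0.744 to 0.288 in SCR against WT. In KD against SCR, CXCL8 ran from -0.883 to 0.353, CXCL1 from -0.0615 to 0.808 and CXCL16 from -0.0782 to 0.484. For KD and WT, CXCL3 ran from -0.666 to 0.736.

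Over all genes and all alternatives, the counts past the threshold ran from 1696 to 2699 for LPS in WT (2380 as reported), 803 to 3170 for LPS in KD (1912), 1791 to 3364 for LPS in SCR (2869), 200 to 934 for SCR against WT in medium (538), 0 to 320 for KD against SCR in medium (11), 272 to 2423 for KD against WT in medium (1951), 0 to 593 for SCR against WT with LPS (19), 0 to 425 for KD against SCR with LPS (0) and 383 to 3145 for KD against WT with LPS (1808). For the interactions they ran from 18 to 241 in SCR against WT (39), 0 to 132 in KD against SCR (0) and 22 to 1320 in KD against WT (60). Depth limits CXCL3 in medium most, with 5 of 9 libraries at or under 3 counts.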
